A study of Homo sapiens with 6 samples.

Results

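The genes described here encode collagens, nidogens and proteoglycans of basement membranes: the type IV collagen chains COL4A1, COL4A2, COL4A5 and COL4A6, the anchoring fibril collagen COL7A1, collagen XVIII (COL18A1), the nidogens NID1 and NID2, perlecan (HSPG2) and agrin (AGRN). They were chosen by name, and all 10 were found among the 58336 gene identifiers and passed the filter on low counts, which kept 15830 genes. RNA sequencing compared 2 groups of 12Z cells, a human epithelial line established from endometriosis. In siBRG1 cells (n = 3 libraries) the siRNA targeted SMARCA4, the gene of the SWI/SNF remodelling ATPase BRG1, and in control cells (n = 3 libraries) it had no target. Both groups received 50 nM siRNA, were moved to 0.5% serum at 48 h and were harvested at 72 h. The extraction protocol in the labels also speaks of a drug or vehicle, which no sample label names. All libraries come from 1 cell line after a transient knockdown, and the labels do not say whether replicates were separate cultures. The p-values therefore measure library-to-library spread, which may be technical. By the labels, the control libraries are all a reanalysis of data deposited earlier and the siBRG1 libraries are not, so deposit and knockdown cannot be told apart for any gene below.

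Basement membranes are thin sheets of extracellular matrix on which epithelia rest. Laminins and type IV collagen each form a network, nidogens link the networks, and perlecan and agrin carry heparan sulfate chains that bind growth factors and water. Type IV collagen chains join into triple helices of fixed make-up: COL4A1 chains pair with COL4A2 chains in nearly all tissues, and COL4A5 chains pair with COL4A6 chains in some epithelial and smooth muscle basement membranes. The genes of each pair lie head to head, and their transcripts start close together on opposite strands.

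RefSeq's promoter table (GRCh38.p14) held 9 of the 10 genes, in 11 windows, and AGRN was not among them. Its start sites placed COL4A1 and COL4A2 127 bases apart on chromosome 13. The stretch between the starts is shown because both genes start from it. It is read on the COL4A2 strand, and capitals mark a CCAAT box (CCAAT), a pyrimidine run (CCCTCCCC) and a GC box (GGGCGG).
COL4A1/COL4A2 between starts, chr13:110307158-110307283, plus strand: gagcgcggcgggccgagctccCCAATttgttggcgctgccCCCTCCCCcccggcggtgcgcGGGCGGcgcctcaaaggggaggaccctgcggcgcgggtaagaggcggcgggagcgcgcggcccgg
COL4A5 and the nearest start of COL4A6 lie 380 bases apart on chromosome X, and another start of COL4A6 lies 1416 bases from that of COL4A5. The 250 bases before the COL4A5 start are shown for comparison with the first pair. Only CCAAT boxes are in capitals here, including ATTGG, the match on the opposite strand. The stretch holds no GC box, and its 1 pyrimidine run (CCCTCCCC) is left in small letters.
COL4A5 upstream, chrX:108439588-108439837, plus strand: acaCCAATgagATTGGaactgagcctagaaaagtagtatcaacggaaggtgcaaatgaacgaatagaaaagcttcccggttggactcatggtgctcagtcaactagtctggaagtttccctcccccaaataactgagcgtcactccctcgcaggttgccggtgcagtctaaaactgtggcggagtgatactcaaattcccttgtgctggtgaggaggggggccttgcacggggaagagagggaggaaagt
The 250 bases before the start of HSPG2, the gene with the highest rise of the 10, are shown with GC boxes in capitals. They hold 8 GC boxes, some of which overlap one another, and 82.8% of their bases are G or C.
HSPG2 upstream, chr1:21937311-21937560, minus strand: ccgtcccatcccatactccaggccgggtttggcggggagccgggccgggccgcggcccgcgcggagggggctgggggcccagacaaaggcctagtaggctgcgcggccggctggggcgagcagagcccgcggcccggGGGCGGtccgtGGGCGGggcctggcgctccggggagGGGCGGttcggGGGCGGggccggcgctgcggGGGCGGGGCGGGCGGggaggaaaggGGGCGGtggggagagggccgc
Searched on both strands in the 250 bases before each start, the GC box was found in 9 of the 11 windows and in 42.6% of all 35116 promoters. The CCAAT box was found in 6 of the 11 and in 32.0% of all promoters, and the run CCCTCCCC in 8 of the 11 and in 12.7%. TATAAA was found in 2 of the 11 (10.7% of all promoters), and the AP-1 motif TGANTCA in none of the 11 (6.57%). The windows of the head-to-head genes overlap and are not independent. A match is a description of letters and not a site.

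Library totals and checks of the labels bear on all of the genes. Counts assigned to genes were 12391161 to 13369692 per siBRG1 library and 40228678 to 49720320 per control library, so the control libraries were on average 3.44-fold deeper. The groups also stood apart in composition, with 20.3 ± 1.62% of reads mapped to several places in siBRG1 and 9.81 ± 0.224% in control (SD, n = 3). Reads that overlapped no exon on the counted strand made up 3.97 ± 0.194% in siBRG1 and 13.3 ± 0.415% in control. Such reads can lie between genes, in introns or opposite to a gene. The part of these shares in the results below was not tested. SMARCA4 stood at 60.5, 78.9 and 50.6 CPM in siBRG1 libraries and at 244, 266 and 262 CPM in control libraries, a 4.07-fold fall (log2 fold change −2.03 with an SE of 0.161, adjusted p = 0.000267). Levels are given as CPM, counts scaled to the TMM-normalised library total, and fold changes are siBRG1 over control from edgeR's quasi-likelihood test over all 15830 genes. Of these genes, 11498 passed an adjusted p of 0.05, which is 72.6% of genes tested (36.1% higher and 36.5% lower in siBRG1), and any count below is to be read against that share. Of 8 epithelial markers, 7 had at least 10 counts in every library, and their summed level was 3488 to 3742 CPM in siBRG1 and 3942 to 4028 CPM in control, most of it from the keratins KRT8, KRT18 and KRT19. EPCAM, a defining epithelial marker, was low, at 1.61 ± 0.264 CPM in siBRG1 and 0.251 ± 0.0889 CPM in control (SD, n = 3). Of the 8 epithelial markers 4 rose and 2 fell. EPCAM, CDH1, PAX8 and KRT8 rose (log2 fold changes 2.63, 0.93, 0.90 and 0.09, adjusted p = 9.35e-07, 6.10e-05, 2.51e-05 and 0.0318). KRT7 fell, at 36.9 ± 4.50 CPM in siBRG1 and 196 ± 9.10 CPM in control (adjusted p = 9.51e-24). KRT19 also fell, at 609 ± 14.4 CPM in siBRG1 and 883 ± 20.4 CPM in control (adjusted p = 1.76e-13). All 8 markers of fibroblasts and pericytes, cells that also make these matrix proteins, were detected. Of these markers 6 rose and 1, THY1, fell (log2 fold change −0.17, adjusted p = 0.000178). Their sum was 4748 to 5072 CPM in siBRG1 against 2627 to 2812 CPM in control. Most of that sum came from 2 collagens. COL1A1 stood at 2536 ± 95.3 CPM in siBRG1 and 1955 ± 75.4 CPM in control, and COL3A1 at 1616 ± 98.3 CPM in siBRG1 and 294 ± 33.7 CPM in control. The part of fibroblasts and pericytes in the results below was not tested. The 8 endothelial markers summed to 15.1 to 21.6 CPM in siBRG1 and 17.9 to 20.7 CPM in control, with EMCN at 0 counts in all libraries and PECAM1 at 2 counts over each group. KDR carried most of that sum, at 14.6 ± 2.45 CPM in siBRG1 and 15.9 ± 1.20 CPM in control, and of the 4 tested CDH5 rose and VWF and TIE1 fell (log2 fold changes 1.96, −0.69 and −2.86). The 6 immune markers summed to 10.1 to 10.5 CPM in siBRG1 and 4.23 to 5.68 CPM in control, with CD3E at 0 counts. CD14 made up most of it and rose (9.39 ± 0.443 CPM in siBRG1 and 4.08 ± 0.561 CPM in control, adjusted p = 1.43e-08). Fewer cells of a type and less RNA per cell cannot be told apart in these bulk samples.

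Most of the 10 basement membrane genes were higher after SMARCA4 knockdown. At an adjusted p under 0.05, 8 rose, 1 fell (COL7A1) and 1 did not pass (COL4A1), that is 80% higher where 36.1% of all genes tested were higher. The median log2 fold change was 0.53 over the 10 genes and −0.01 over all genes tested. HSPG2 and NID2 rose by at least 2-fold (2 of 10, where 10.4% of all genes did), and COL7A1 fell by at least 2-fold (1 of 10, where 11.1% did), together 3 of 10 against 21.6%. NID2 lies at that limit, and HSPG2 alone rose by 2-fold without siBRG1 replicate 1, control replicate 2 or control replicate 3. CPM of the groups did not overlap for 9 of the 10 genes, 8 of them higher and 1 lower in siBRG1, where 74.3% of all genes tested did not overlap (36.7% higher and 37.6% lower). Summed over the 10 genes, the level was 2021, 1999.6 and 1929 CPM in siBRG1 libraries and 1379, 1436 and 1397 CPM in control libraries. These sums gave p = 0.1 in a two-sided exact permutation test, the smallest that 3 libraries against 3 allow. Within the siBRG1 group, replicate 3 held the lowest value for 7 of the 10 genes.

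**Figure D1:**
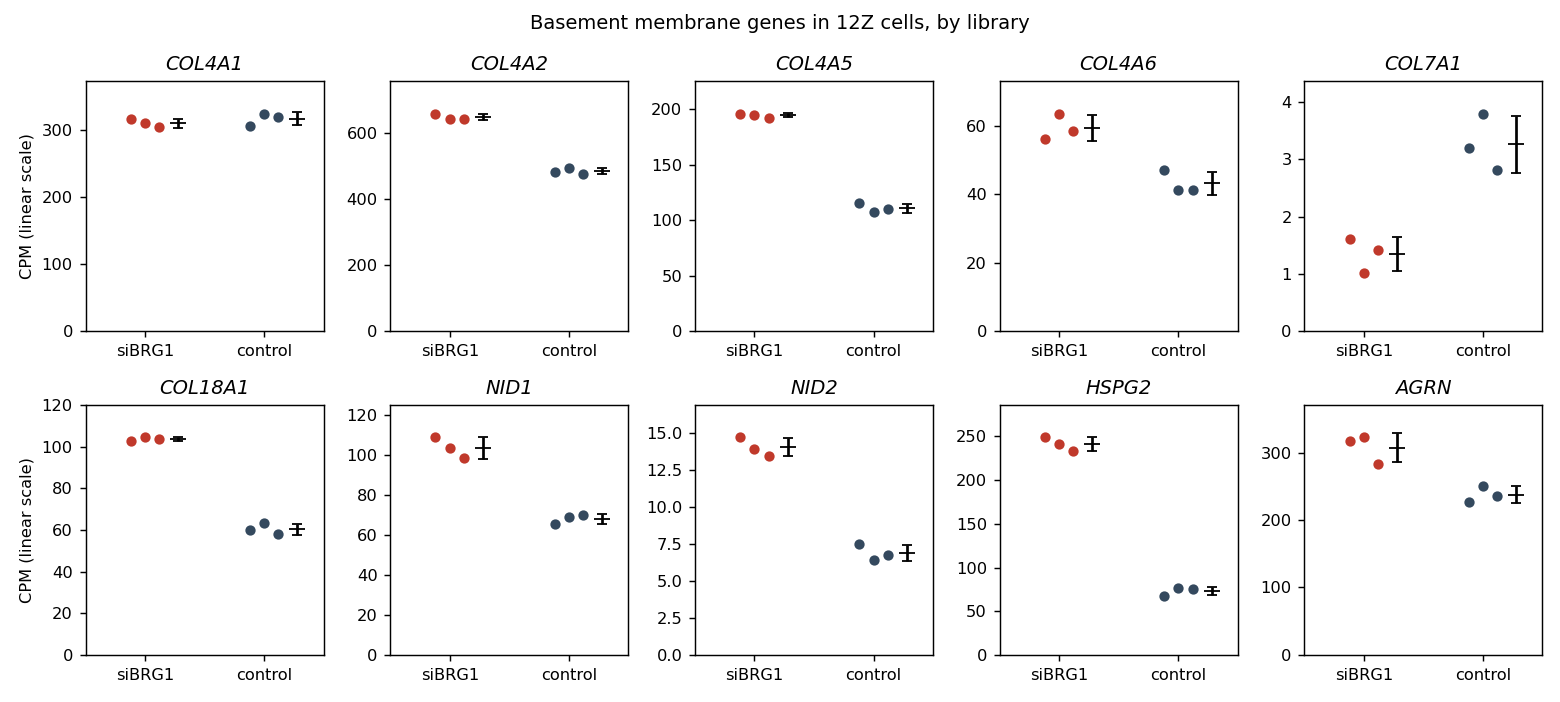
CPM of each gene by library on linear axes that start at 0, with siBRG1 libraries (red) left of control libraries (dark grey); black bars give the mean and SD of 3 libraries. The 3 siBRG1 values lie above the 3 control values for 8 genes, below them for COL7A1 and among them for COL4A1.

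COL4A1 and COL4A2, which encode the chains of the most widespread type IV collagen, gave different calls: COL4A2 rose and COL4A1 did not pass the test. COL4A1 (ENSG00000187498.14, chromosome 13, 110148963 to 110307233 on GRCh38, minus strand) had 317, 310.0 and 304 CPM in siBRG1 libraries and 306, 324 and 319.7 CPM in control libraries. The groups overlapped, and the gene missed the threshold (log2 fold change −0.03 with an SE of 0.0376, 95% interval −0.11 to 0.05, adjusted p = 0.476). Its partner COL4A2 (ENSG00000134871.17, chromosome 13, 110305812 to 110513209, plus strand) had 659, 644 and 642 CPM in siBRG1 libraries and 481, 494 and 477 CPM in control libraries. Each siBRG1 library was above each control library, and COL4A2 rose 1.34-fold (log2 fold change 0.42 with an SE of 0.0359, 95% interval 0.35 to 0.50, adjusted p = 1.98e-11). Both rest on many reads, with 3872 to 14871 counts per library for COL4A1 and 8191 to 23363 for COL4A2. The authors' deposited table gave the pair log2 fold changes of −0.06 (adjusted p = 0.171) and 0.40 (adjusted p = 4.16e-45).

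The second pair of chains rose on both sides. COL4A5 (ENSG00000188153.13, chromosome X, 108439844 to 108697545, plus strand), mutated in X-linked Alport syndrome, had 196, 195 and 192 CPM in siBRG1 libraries and 115, 107 and 109.8 CPM in control libraries. It rose 1.76-fold (log2 fold change 0.81 with an SE of 0.0414, adjusted p = 2.17e-16), with siBRG1 libraries that varied by less than 1% (coefficient of variation 0.969%, and 3.80% in control). COL4A6 (ENSG00000197565.15, chromosome X, 108155607 to 108439497, minus strand), whose chain joins with that of COL4A5, had 56.1, 63.6 and 58.4 CPM in siBRG1 libraries and 47.0, 41.1 and 41.4 CPM in control libraries. The groups did not overlap, and COL4A6 rose 1.37-fold (log2 fold change 0.46 with an SE of 0.0627, 95% interval 0.33 to 0.58, adjusted p = 2.24e-07). COL4A3 and COL4A4, the remaining type IV chains, are not among the 10 and are named after their values were seen. COL4A4 stood at 12.1 ± 1.19 CPM in siBRG1 and 4.71 ± 0.0842 CPM in control (SD, n = 3) and rose (log2 fold change 1.36 with an SE of 0.124, adjusted p = 8.63e-11). COL4A3 was barely detected, with 25 counts in the siBRG1 group and 21 in the control group (log2 fold change 1.93 with an SE of 0.520, adjusted p = 0.00163).

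Ratios between paired genes within a library do not depend on how libraries are scaled, and 6 were compared. They are ratios of counts per kilobase of the longest protein-coding transcript. COL4A1 to COL4A2 stood at 0.472, 0.472 and 0.464 in siBRG1 libraries and at 0.625, 0.644 and 0.658 in control libraries, 1.37-fold lower in siBRG1. The groups did not overlap, and the gap was many times the spread within either group (SD 0.00463 and 0.0166, n = 3). COL4A5 to COL4A6 was 3.42 ± 0.222 in siBRG1 and 2.67 ± 0.109 in control. The widest shift among the collagen ratios was that of COL4A5 to COL4A1, at 0.639 ± 0.00759 in siBRG1 and 0.357 ± 0.0243 in control, 1.80-fold higher in siBRG1. COL4A6 to COL4A2 overlapped between groups, at 0.0881 ± 0.00657 in siBRG1 and 0.0858 ± 0.00725 in control (exact two-sided permutation p = 0.7). Each of the other 5 ratios separated the groups fully, with p = 0.1, the lowest a two-sided exact permutation test allows here, and adjusted p = 0.12 over the 6, so none could pass.

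**Figure D2:**
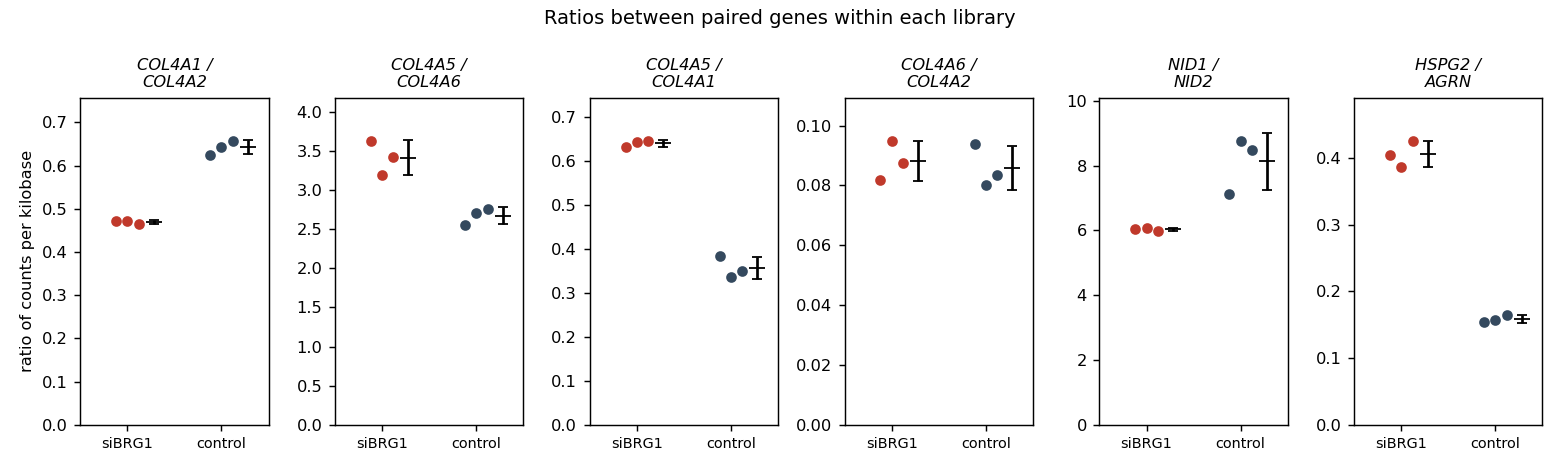
Ratios of counts per kilobase between paired genes in each library, on linear axes that start at 0, siBRG1 (red) left of control (dark grey), with the mean and SD of 3 libraries in black. COL4A1 to COL4A2 and NID1 to NID2 are lower in every siBRG1 library, HSPG2 to AGRN is higher, and COL4A6 to COL4A2 overlaps.

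As a share of all type IV collagen counts per kilobase, COL4A1 held 25.1 ± 0.209% in siBRG1 and 32.7 ± 0.794% in control (SD, n = 3). COL4A2 made up 53.5 ± 0.289% in siBRG1 and 50.9 ± 0.411% in control. The share of COL4A5 was 16.0 ± 0.0723% in siBRG1 and 11.7 ± 0.538% in control, and the groups did not overlap for these 3 chains (two-sided exact permutation p = 0.1 each, again the lowest that 3 against 3 allow). COL4A6 made up 4.71 ± 0.327% in siBRG1 and 4.37 ± 0.360% in control, which overlapped. COL4A4 held 0.645 ± 0.0658% in siBRG1 and 0.321 ± 0.00913% in control, and COL4A3 less still. COL4A2 was thus the most abundant chain in both groups on this scale, which rests on annotated transcript lengths.

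**Figure D3:**
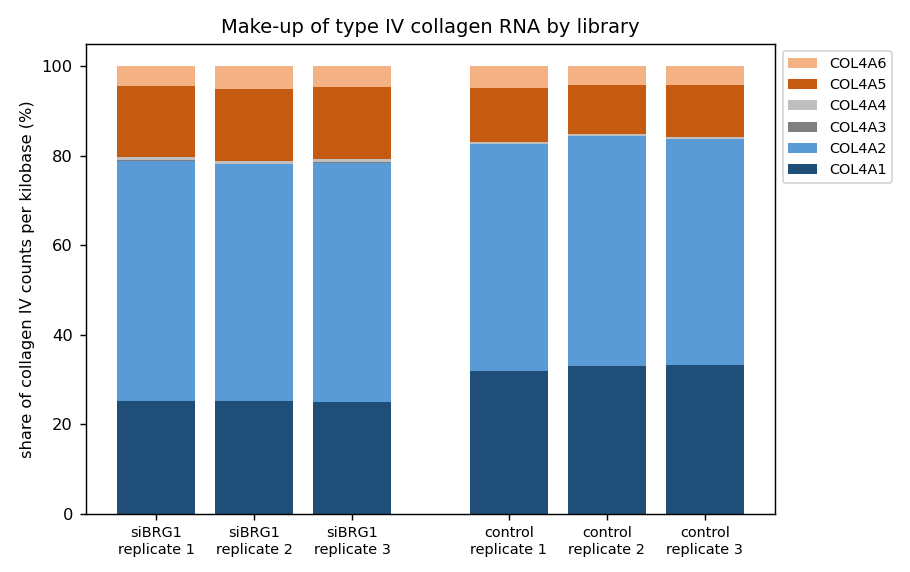
Stacked shares (%) of the 6 type IV collagen genes in counts per kilobase, 1 bar per library, the 3 siBRG1 libraries left of the 3 control libraries. The COL4A1 part is smaller (25.1% on average in siBRG1, 32.7% in control) and the COL4A5 part larger (16.0% and 11.7%) in siBRG1.

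Perlecan, agrin and collagen XVIII, the basement membrane proteoglycans, all rose, and HSPG2 rose most of the 10 genes. HSPG2 (ENSG00000142798.18, chromosome 1, 21822245 to 21937297, minus strand) encodes perlecan, a large multidomain core protein. It had 249, 242 and 233 CPM in siBRG1 libraries and 67.8, 76.2 and 75.5 CPM in control libraries. In raw counts the siBRG1 libraries held 3417, 3085 and 2975 reads of HSPG2 and the control libraries, though deeper, 3294, 2991 and 3034. HSPG2 rose 3.30-fold (log2 fold change 1.72 with an SE of 0.0462, 95% interval 1.63 to 1.82, adjusted p = 4.92e-23), and 548 of the 15830 genes tested rose at least as much, HSPG2 included. AGRN (ENSG00000188157.14, chromosome 1, 1020123 to 1056118, plus strand) encodes agrin, which also clusters acetylcholine receptors at the neuromuscular junction. It had 317, 323 and 282 CPM in siBRG1 libraries and 226, 251 and 236 CPM in control libraries and rose 1.29-fold (log2 fold change 0.37 with an SE of 0.0454, adjusted p = 2.79e-08). With trends over GC content and length removed from each library, its log2 fold change was 0.17 (adjusted p = 0.000124), a smaller rise, while that of HSPG2 was 1.68. The ratio of HSPG2 to AGRN was 0.405, 0.387 and 0.426 in siBRG1 libraries and 0.155, 0.157 and 0.165 in control libraries, 2.56-fold higher in siBRG1. COL18A1 (ENSG00000182871.14, chromosome 21, 45405137 to 45513720, plus strand) encodes a collagen that carries heparan sulfate chains and ends in the endostatin fragment. It had 103, 104 and 104 CPM in siBRG1 libraries and 59.9, 63.3 and 57.9 CPM in control libraries. COL18A1 rose 1.72-fold (log2 fold change 0.78 with an SE of 0.0485, adjusted p = 1.93e-14), or by a log2 fold change of 0.53 once GC and length trends were removed (adjusted p = 1.70e-10). The gene has RefSeq starts at 45405165 and 45455522, and counts per gene do not separate the transcripts of each. AGRN and COL18A1 have the highest GC content of the 10 in their longest transcript (67.5% and 67.2%).

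Both nidogens, the linker glycoproteins between the laminin and collagen networks, rose. NID1 (ENSG00000116962.14, chromosome 1, 235975830 to 236065162, minus strand) had 109, 103 and 98.1 CPM in siBRG1 libraries and 65.2, 69.0 and 70.0 CPM in control libraries. It rose 1.52-fold (log2 fold change 0.60 with an SE of 0.0496, adjusted p = 9.15e-12). NID2 (ENSG00000087303.17, chromosome 14, 52004803 to 52069228, minus strand) was less abundant, at 14.7, 14.0 and 13.5 CPM in siBRG1 libraries and 7.52, 6.45 and 6.76 CPM in control libraries. NID2 rose 2.03-fold (log2 fold change 1.02 with an SE of 0.111, 95% interval 0.79 to 1.25, adjusted p = 3.16e-09), and its interval holds values on both sides of a 2-fold change. NID2 had 202, 178 and 172 counts in siBRG1 libraries and 365, 253 and 272 in control libraries. At such counts the SD of a ratio over 3 libraries is a rough measure of spread. The ratio of NID1 to NID2 was 6.03 ± 0.0558 in siBRG1 and 8.13 ± 0.884 in control, lower in each siBRG1 library than in any control library. With control counts thinned to the depth of siBRG1 the groups overlapped, and the difference of the log2 ratio was −0.28 (exact two-sided permutation p = 0.3) in place of −0.42.

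COL7A1 (ENSG00000114270.17, chromosome 3, 48564073 to 48595267, minus strand) was the 1 gene of the 10 that fell. It encodes the collagen of anchoring fibrils, which tie the epidermal basement membrane to the dermis, and it was the least abundant of the 10. Its counts were 22, 13 and 18 in siBRG1 libraries and 155, 149 and 113 in control libraries, or 1.60, 1.02 and 1.41 CPM in siBRG1 and 3.19, 3.80 and 2.81 CPM in control. The groups did not overlap, and COL7A1 fell 2.41-fold (log2 fold change −1.27 with an SE of 0.243, 95% interval −1.77 to −0.77, adjusted p = 3.68e-05). Its interval is the widest of the 10 genes, and its counts are the lowest.

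**Figure D4:**
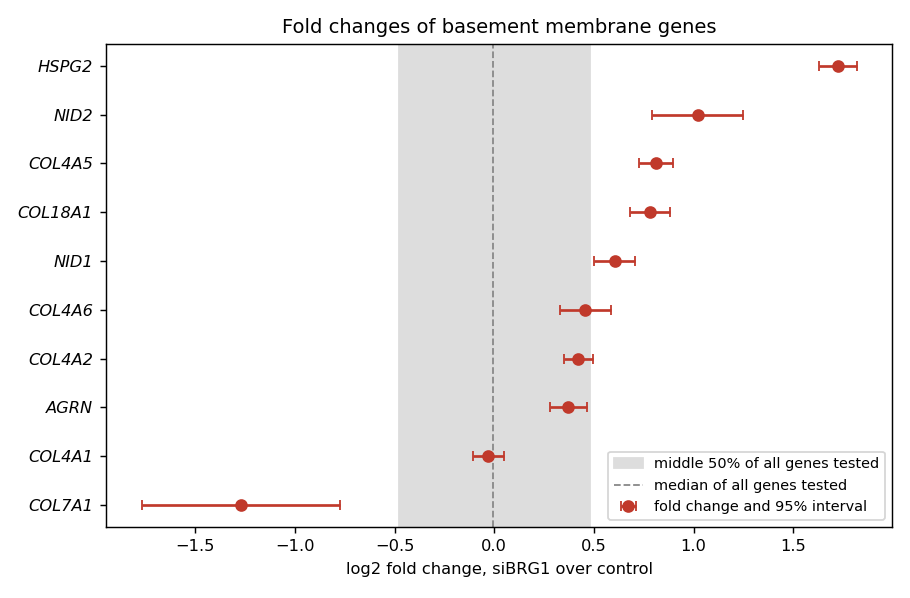
Log2 fold change of each gene (siBRG1 over control, points) with its 95% interval (bars) beside the median (dashed line) and the middle 50% (grey band, −0.48 to 0.48) of all 15830 genes tested. HSPG2 lies highest at 1.72 and COL7A1 lowest at −1.27, while COL4A1 lies at −0.03 inside the band.

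Per kilobase of transcript, the genes ranked in nearly the same order in both groups, with HSPG2 as the one that moved most. COL4A2 led at 99.9 ± 1.42 CPM per kilobase in siBRG1 and 74.6 ± 1.39 in control, followed in both groups by COL4A1, AGRN, COL4A5 and NID1. HSPG2 ranked 6th in siBRG1 at 16.8 ± 0.547 CPM per kilobase, where its range overlapped that of NID1 (17.6 ± 0.897), and 8th in control at 5.11 ± 0.324. NID2 ranked 9th and COL7A1 10th in each group, COL7A1 at 0.145 ± 0.0321 CPM per kilobase in siBRG1 and 0.352 ± 0.0537 in control. No other neighbours in either order overlapped in range.

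Genes next to the 10 loci were examined by position. Of 11 nearest protein-coding neighbours tested, 6 rose and 3 fell, where 36.1% of all genes tested rose and 36.5% fell. GNG2 beside NID2 changed most of these neighbours (log2 fold change 2.09, adjusted p = 2.88e-10). ISG15 beside AGRN, POFUT2 beside COL18A1 and GPR137B beside NID1 also rose (log2 fold changes 0.76, 0.52 and 0.40). LYST, also beside NID1, fell (log2 fold change −0.51), and PCBP3 beside COL18A1 missed the threshold (0.11, adjusted p = 0.620). RAB20, downstream of COL4A2, rose (7.03 ± 1.51 CPM in siBRG1 and 4.66 ± 0.536 CPM in control, log2 fold change 0.59, adjusted p = 0.00136), and IRS2, beyond COL4A1, missed the threshold at a log2 fold change of 0.09 (adjusted p = 0.198). ATG4A, the neighbour of COL4A6 opposite COL4A5, fell by 0.34 on the log2 scale (adjusted p = 0.00218). UQCRC1, a respiratory chain subunit gene beside COL7A1, rose (log2 fold change 0.93, adjusted p = 1.27e-17). USP48 beside HSPG2 stood at 95.3 ± 6.83 CPM in siBRG1 and 110.2 ± 4.67 CPM in control and fell (log2 fold change −0.21, adjusted p = 0.000564). On the opposite strand, LDLRAD2 shares exonic sequence with HSPG2 and was barely expressed (0.668 ± 0.309 CPM in siBRG1 and 0.0841 ± 0.0764 CPM in control, log2 fold change 2.89 with an SE of 0.652, adjusted p = 0.000270). Strand was kept in counting, and reads on the strand opposite to HSPG2 made up 0.660 ± 0.236% of stranded reads there in siBRG1 and 0.436 ± 0.359% in control. The share was highest at NID2, whose exons overlap those of RTRAF on the opposite strand, at 8.81 ± 2.93% in siBRG1 and 24.9 ± 1.32% in control (two-sided exact permutation p = 0.1, the lowest allowed). Scaled to the gene counts of each library, opposite-strand reads did not overlap between groups at 6 of the 10 genes, where 29.2% of all genes tested did not. They were higher in siBRG1 at 5 (12.9% of all genes), each of which also rose on the counted strand, and lower at 1, NID2 (16.3%). RTRAF itself stood at 139.7 ± 13.7 CPM in siBRG1 and 116 ± 6.70 CPM in control. Exons of COL18A1 overlap those of SLC19A1 on the opposite strand. The share of opposite-strand reads at COL18A1 was 4.18 ± 0.774% in siBRG1 and 8.16 ± 0.715% in control. SLC19A1 stood at 30.1 ± 4.17 CPM in siBRG1 and 47.9 ± 1.02 CPM in control and fell (log2 fold change −0.67, adjusted p = 2.62e-09).

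Other genes of the basement membrane were described from 7 lists, none of which was tested as a set. Of 23 further basement membrane components 15 were tested, and 11 rose and 3 fell (median log2 fold change 0.66). The fibulins FBLN1 and FBLN2, calcium-binding glycoproteins, rose most among genes with a mean of at least 50 counts per library. FBLN1 stood at 44.1 ± 4.16 CPM in siBRG1 and 12.6 ± 1.33 CPM in control (log2 fold change 1.81 with an SE of 0.0839, adjusted p = 2.47e-17), and FBLN2 at 497 ± 16.2 CPM in siBRG1 and 173 ± 2.79 CPM in control (log2 fold change 1.52 with an SE of 0.0379, adjusted p = 8.42e-24). TINAGL1 fell (log2 fold change −0.70 with an SE of 0.0801, adjusted p = 8.07e-09), as did NTN4, a netrin that binds laminin (log2 fold change −0.60 with an SE of 0.0618, adjusted p = 1.13e-09). COL17A1, a hemidesmosome collagen named after its value was seen, also fell and had 18 counts over the siBRG1 group and 222 over the control group (log2 fold change −1.91 with an SE of 0.392, adjusted p = 8.86e-05). Of 12 laminin chains 10 were tested, and 8 rose (median 0.45). LAMA1 and LAMA3, which encode laminin alpha chains, had log2 fold changes of 1.07 and 1.01 (adjusted p = 2.83e-16 and 4.20e-14).

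Enzymes and export factors that handle collagen IV chains rose in 16 of 22 cases and fell in 4 (median 0.35). P4HA3, a prolyl 4-hydroxylase subunit, rose most (14.7 ± 0.240 CPM in siBRG1 and 4.89 ± 0.304 CPM in control, log2 fold change 1.59 with an SE of 0.115, adjusted p = 6.16e-13), and P3H1, a prolyl 3-hydroxylase, had a log2 fold change of 0.75 (adjusted p = 9.42e-14). MIA3, which encodes TANGO1, a receptor that loads collagens for export from the endoplasmic reticulum, fell (log2 fold change −0.35 with an SE of 0.0472, adjusted p = 1.54e-07), and so did PPIB, a prolyl isomerase (log2 fold change −0.30 with an SE of 0.0368, adjusted p = 2.20e-08). PXDN, the peroxidase that crosslinks collagen IV networks, is in this list and in that of basement membrane components, and stood at 419 CPM in siBRG1 and 341 CPM in control on average (log2 fold change 0.30, adjusted p = 3.99e-08; named after its value was seen).

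Genes that build and trim heparan sulfate, the sugar carried by perlecan, agrin and collagen XVIII, went both ways, with 14 of 24 tested higher and 6 lower (median 0.30). SULF2, an extracellular sulfatase that removes sulfate from the chains, rose 3.16-fold (log2 fold change 1.66 with an SE of 0.0783, adjusted p = 3.69e-17). SLC35B2, the Golgi carrier of the sulfate donor, rose 2.05-fold (adjusted p = 6.62e-18), while PAPSS2, which makes that donor, fell to 162 ± 6.77 CPM in siBRG1, against 288 ± 2.73 CPM in control cells (log2 fold change −0.83 with an SE of 0.0396, adjusted p = 4.57e-17). HS3ST3A1, a 3-O-sulfotransferase, fell as well, at a low level (log2 fold change −0.91 with an SE of 0.235, adjusted p = 0.00111). PAPSS1 and HS3ST3B1, in the same list as PAPSS2 and HS3ST3A1, rose instead (log2 fold changes 0.42 and 0.94, adjusted p = 2.87e-08 and 0.000200). Both were named after their values were seen. Cell-surface proteoglycans were also mixed, with 3 of 7 tested higher and 2 lower (median 0.07), which is 71.4% called and near the background of 72.6%. SDC3 and GPC6 rose (log2 fold changes 1.32 and 0.60, adjusted p = 2.11e-15 and 1.28e-09), and SDC1, the main epithelial syndecan, and SDC4 fell by 0.40 and 0.21 on the log2 scale (adjusted p = 1.85e-08 and 1.14e-05).

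Receptors that bind the basement membrane rose in 9 of 12 cases and fell in 1 (median 0.41). BCAM, a laminin receptor of the immunoglobulin family, and ITGB4, the hemidesmosome integrin subunit, rose with log2 fold changes of 1.42 and 1.39 (adjusted p = 3.58e-18 and 4.05e-16). ITGA6, whose product pairs with that of ITGB4, fell to 154 ± 7.67 CPM in siBRG1, against 279.7 ± 5.53 CPM in control cells (log2 fold change −0.86 with an SE of 0.0410, adjusted p = 4.71e-17). Proteases that cut basement membrane proteins and their inhibitors included 12 of 17 that rose and 4 that fell (median 0.49). MMP2, a gelatinase that cleaves type IV collagen, rose to 59.7 ± 4.33 CPM in siBRG1, against 6.33 ± 0.608 CPM in control cells (log2 fold change 3.23 with an SE of 0.0823, adjusted p = 1.50e-23). MMP14, the membrane protease that activates it, stood at 198 ± 1.14 CPM in siBRG1 and 84.3 ± 2.86 CPM in control (log2 fold change 1.24, adjusted p = 1.45e-20). ADAMTS1 fell to 57.4 ± 5.25 CPM in siBRG1, against 313 ± 9.88 CPM in control cells (log2 fold change −2.44 with an SE of 0.0509, adjusted p = 9.44e-26), and the inhibitor TIMP3 fell 2.06-fold (adjusted p = 5.81e-05). The inhibitors TIMP1 and TIMP2, named after their values were seen, rose (log2 fold changes 0.69 and 0.27, adjusted p = 6.84e-13 and 1.51e-07). TIMP2 stood at 755 ± 8.84 CPM in siBRG1 and 629 ± 9.02 CPM in control. TIMP4, also named after its value was seen, missed the threshold at a low level.

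**Figure D5:**
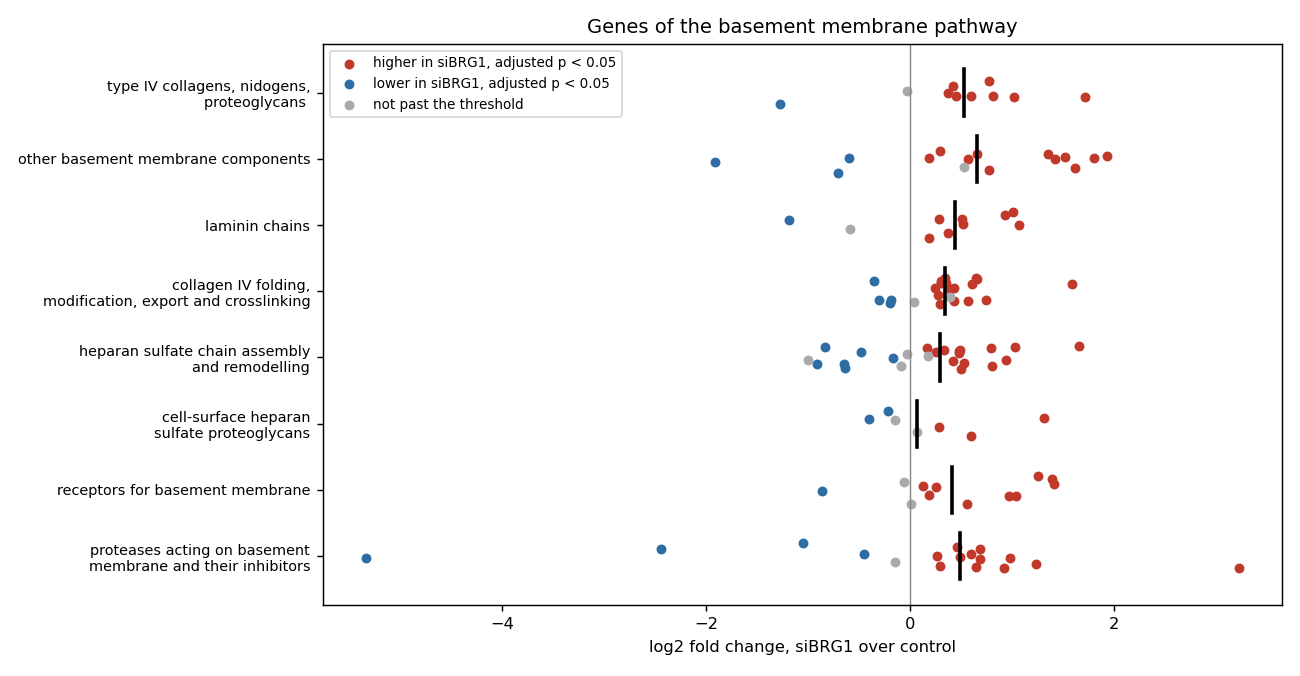
Log2 fold change (siBRG1 over control) of every tested gene in the 10-gene set (top row) and in 7 lists of related genes; black lines are medians, red and blue points passed an adjusted p of 0.05 and grey points did not, and height within a row carries no meaning. Medians lie above 0 in every row, from 0.07 for cell-surface proteoglycans to 0.66 for other basement membrane components.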

How the data were processed

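mRNA of 12Z cells was sequenced as 3 siBRG1 and 3 control libraries. The authors deposited raw counts per gene for each library, in the layout STAR writes, with unstranded and both stranded columns. The submitters' processing notes list, with no versions, STAR, DESeq2, FastQC, cutadapt and Trim Galore, and the build GRCh38.p12. The release of the gene models was not given in the sources used here. The authors also deposited a table of their own comparison with, per the file headers, log2 fold changes, a test statistic (score) and p-values.

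Of 58336 identifiers, 58216 matched GENCODE release 29 without their version. The stranded column with the larger total was used. Entries that name no gene held 29.2 ± 1.33% of reads in siBRG1 and 28.9 ± 0.516% in control (SD, n = 3) and were left out. The parts of that share differed. Reads mapped to several places made up 20.3 ± 1.62% in siBRG1 and 9.81 ± 0.224% in control. Reads that overlapped no exon on the counted strand made up 3.97 ± 0.194% in siBRG1 and 13.3 ± 0.415% in control. Counts of replicate libraries varied beyond counting error, with 2.64 to 4.55 for chi-square over its degrees of freedom. The test was that of edgeR 4.0.16 in R 4.3.3 (TMM, filterByExpr, robust quasi-likelihood fit, Benjamini-Hochberg). The SE is the absolute log2 fold change over the square root of F. On simulated counts for 15353 genes of this comparison, 97.5% of 200 changed genes were recovered, with 5 false calls. The changed genes were drawn from those above a minimum expected count and given changes of at least 2-fold. The recovery therefore does not cover smaller changes or data in which most genes change. Exact two-sided permutation tests were used for ratios and shares. In this range of depth, 3 counts equal 0.236 CPM in siBRG1 and 0.0690 CPM in control libraries on average. Levels per kilobase use the longest protein-coding transcript of the basic GENCODE set.

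The genes, lists and tests were chosen with earlier results of these data known. Named genes of a list are the 2 largest rises and 2 largest falls, where that many passed the test, averaged 50 counts or more and kept the groups apart; other genes are said to be named after their values were seen. One result that this rule selects is not reported here. Alternatives covered DESeq2 1.42.0 and its size factors, count filters, unstranded counts, protein-coding genes alone, removal of GC and length trends (mgcv 1.9.3), thinned control counts, the replicate number as a block and leaving out each library.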

Additional observations from a re-analysis of the deposited data

Results flagged for a closer look

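Reads on the strand opposite to a gene were not used in the comparisons. Scaled as CPM to the gene counts of the library, they were more frequent in each siBRG1 library than in any control library at 5 of the 10 genes, where 12.9% of all genes tested were. That share covers all genes tested, whatever their number of opposite-strand reads. The reverse held at NID2, with 0.972, 1.92 and 1.29 CPM in siBRG1 libraries and 2.63, 2.01 and 2.07 CPM in control libraries (16.3% of all genes). At COL4A2 they stood at 12.3, 9.85 and 9.04 CPM in siBRG1 libraries and at 5.55, 5.57 and 4.18 in control libraries. At HSPG2 they stood at 2.39, 1.20 and 1.37 in siBRG1 and at 0.523, 0.0497 and 0.337 in control, from 32, 15 and 17 and from 26, 2 and 14 reads. AGRN had 1.35, 1.68 and 2.58 in siBRG1 and 1.25, 0.920 and 1.13 in control. COL4A5 had 1.35, 0.881 and 0.646 in siBRG1 and 0.382, 0.348 and 0.264 in control. NID1 had 1.12, 0.881 and 0.323 in siBRG1 and 0.241, 0.174 and 0.240 in control. Few reads lie behind both genes. COL4A5 had 18, 11 and 8 reads in siBRG1 and 19, 14 and 11 in control. For NID1 the reads were 15, 11 and 4 in siBRG1 and 12, 7 and 10 in control. COL4A2, COL4A5, NID1, HSPG2 and AGRN also rose on the counted strand. As a share of stranded reads at the same gene, the groups were separate at COL4A2 alone of these 5, at 1.53 ± 0.222% in siBRG1 and 1.07 ± 0.148% in control (SD, n = 3; two-sided exact permutation p = 0.1, which no 3 against 3 can beat). COL4A2-AS1, an antisense gene that overlaps exons of COL4A2, stood at 0.149 ± 0.146 CPM in siBRG1 and 0.0442 ± 0.0330 CPM in control.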

How the results depend on the processing

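Calls of the 10 genes did not change under any of the 9 alternatives that keep all libraries, nor when any 1 library was left out. The log2 fold change of COL4A1 turned to 0.0300 with unstranded counts (adjusted p = 0.485) and to 0.0296 once GC and length trends were removed (adjusted p = 0.437), each time without passing the threshold. Of genes higher by at least 2-fold, 1 of the 10 was left, in place of 2, with the DESeq2 test, with no count filter, with protein-coding genes alone, with GC and length trends removed and with thinned control counts, and 1 to 2 were found when a library was left out (1 without siBRG1 replicate 1, control replicate 2 or control replicate 3). Over all 15830 genes tested, 1649 were higher and 1763 lower by at least 2-fold. These counts were 1002 and 1048 of 12811 genes with at least 50 counts in 3 libraries. Those lower were 2844 of 30426 genes with no count filter and 847 of 12783 with protein-coding genes alone. The counts are thus out of different numbers of genes. Leaving out a library moved the difference in the log2 ratio of COL4A6 to COL4A2 between −0.0166 and 0.106, the difference in opposite-strand share at COL7A1, which rests on 0 to 3 reads a library, between −0.655 and 5.34 percentage points, and that at AGRN between −0.0163 and 0.218. The difference in the log2 ratio of NID1 to NID2 was −0.28 with thinned control counts, where the groups overlapped, in place of −0.42. The cause of these shifts was not tested. Same-numbered libraries did not deviate together (r = −0.01 to 0.02 across genes), and with the replicate block 11194 genes were called and COL4A1 had a log2 fold change of −0.03 (adjusted p = 0.527). Depth limits COL7A1, with at most 22 counts per siBRG1 library, and COL4A3, with 25 over the siBRG1 group.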
